A study of Mus musculus with 12 samples.

Results

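The genes described here encode the proteins of the cytosolic ribosome, measured in RNA from whole mouse liver. They were taken by symbol: names that begin with Rpl or Rps followed by a number, the stalk genes Rplp0, Rplp1 and Rplp2, and Rpsa, with the Rps6 kinases and pseudogenes left out. This gave 82 of the 14822 genes in the deposited table, 50 for the large (60S) subunit and 32 for the small (40S) subunit. Of these, 77 are core ribosomal proteins and 5 are paralogs (Rpl3l, Rpl7l1, Rpl22l1, Rpl36al and Rps27l). The study measured polyA RNA of C57BL6/J mice in 3 groups of 4 libraries. The FGF21 group ate a MASH diet, which gives metabolic dysfunction-associated steatohepatitis, and received FGF21 at 1 mg/kg/day. The MASH vehicle group ate the same diet and received saline, and the chow group ate chow and received saline. Treatment lasted 4 weeks in all 3 groups. FGF21 is a hormone that acts on liver, fat and brain. The labels do not state what the MASH diet contains, nor the sex and age of the mice. They also do not say that each library came from a separate animal, so p-values reflect no more than library-to-library spread, which may be technical.

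Ribosomal proteins fold onto ribosomal RNA to form the 2 subunits that translate mRNA. They are needed in equal numbers, apart from the paired stalk proteins Rplp1 and Rplp2. In mammals the mRNAs of ribosomal proteins are held together mainly at the level of translation. Each of these mRNAs begins with a run of pyrimidines, the TOP motif, through which mTORC1 and the RNA-binding protein Larp1 set how much of it is translated. An mRNA level therefore does not give the rate at which a ribosomal protein is made. Many of these genes also carry small nucleolar RNAs (snoRNAs) in their introns.

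Promoter windows in RefSeq (GRCm38.p6) were matched for 62 of the 82 genes, with 74 windows of 300 bases in all. Stretches from 70 bases before to 30 bases after the annotated start are shown for 4 members. Rpl26 and Rpl6 were called higher in both comparisons with chow, and Rpl13a and Rpl22l1 had the lowest fold changes called in FGF21 against chow. Capitals mark 3 motifs searched on both strands: CTCTTTC, a pyrimidine run like that of TOP mRNAs; CCGGAAG, the core bound by ETS factors; and TATAAA, the TATA box. In Rpl22l1 the matches on the 2 strands overlap each other.
Rpl26: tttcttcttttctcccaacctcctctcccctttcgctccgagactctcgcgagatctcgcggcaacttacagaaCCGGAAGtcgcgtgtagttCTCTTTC
Rpl6: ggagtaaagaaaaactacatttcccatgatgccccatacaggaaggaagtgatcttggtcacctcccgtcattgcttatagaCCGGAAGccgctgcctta
Rpl13a: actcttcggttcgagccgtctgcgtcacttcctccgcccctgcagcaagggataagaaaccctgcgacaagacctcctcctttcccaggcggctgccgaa
Rpl22l1: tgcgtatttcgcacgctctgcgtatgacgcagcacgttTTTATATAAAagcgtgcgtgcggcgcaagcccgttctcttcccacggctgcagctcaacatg
These stretches lie at chr11:68901496-68901595 (plus strand), chr5:121204431-121204530 (plus), chr7:45128716-45128815 (minus) and chr3:28805438-28805537 (plus), in the order printed. CTCTTTC was present in 21 of the 74 member windows (28.4%), against 8.16% of all 32851 windows. CCGGAAG was present in 26 (35.1%), against 8.86%, and TATAAA in 7 (9.46%), against 13.6%. Within their whole windows Rpl26 and Rpl6 held both CTCTTTC and CCGGAAG, and Rpl13a held none of the 3 motifs. Other called members differed in the motifs they held, and Rpl21 and Rpl30 had no matched window. Of those also called higher in both comparisons with chow, Rps6 held CCGGAAG, while Rpl9, Rpl14 and Rpl7l1 held none of the 3. Rpl27a, called lower in FGF21 against chow, held CCGGAAG. A relation between motif and fold change was not tested. A match describes letters and is not a measured site.

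Before the results, some libraries stand apart. FGF21 replicates 1 and 3 had totals of 992031.9 and 991794.2 TPM, against 998783.1 to 999890.5 TPM in the other 10 libraries. FGF21 replicate 4 was the lowest of its group in 65 of 81 members and the lowest of all 12 libraries in 52. Chow replicate 2 was the lowest of its group in 49 members. The hepatocyte markers summed to 86760.1 to 101512 TPM in FGF21, 74621 to 82368.5 TPM in MASH vehicle and 67010.3 to 86889.4 TPM in chow, so the tissue matches its label. The macrophage markers, 17 genes in all, summed to 478 to 689.4 TPM in FGF21, 629.2 to 761.7 TPM in MASH vehicle and 189.4 to 241.6 TPM in chow. Of 16 tested macrophage markers, 14 rose in MASH vehicle against chow, as did 6 of 8 endothelial, 6 of 9 stellate, 3 of 4 lymphocyte, 2 of 2 neutrophil and 2 of 2 proliferation markers, with 0 of any of these lower. In that comparison 29.5% of all genes were called higher and 7.84% lower. The endothelial markers summed to 200.2 to 339.9 TPM in FGF21, 177.6 to 236 TPM in MASH vehicle and 115 to 134.5 TPM in chow, and the stellate markers to 52.2 to 72.3, 53.6 to 152.6 and 26.5 to 39.7 TPM in FGF21, MASH vehicle and chow. The lymphocyte markers summed to at most 11.4 TPM, the neutrophil markers to at most 7.1 TPM and the proliferation markers to at most 9.3 TPM in any library. Erythroid markers summed to 1362.5 to 7047.7 TPM in FGF21, with replicate 3 the highest. They summed to 1786.3 to 3933.1 TPM in MASH vehicle and 1604.1 to 2879.8 TPM in chow. Cholangiocyte markers summed to 22.6 to 25, 25.4 to 70.3 and 24.3 to 40.3 TPM in FGF21, MASH vehicle and chow. In FGF21 against MASH vehicle 1 macrophage marker rose and 5 fell, and 1 stellate marker rose and 3 fell. Of the 2 tested neutrophil markers S100a9 fell (-0.43, limma adjusted p = 0.0454). Spp1, among the macrophage markers that fell (-1.09, limma adjusted p = 0.0284), is also a cholangiocyte marker. Counts for the other cell types are not given here for this comparison. Of all genes 6.02% were higher and 4.28% lower there. The part of these cell types in the results below was not tested. In bulk RNA, fewer cells of a type and less RNA per cell cannot be told apart.

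Ribosomal protein mRNAs were among the most abundant in the liver. The values are TPM, an abundance per transcript length that sums to nearly the same total in each library. Over all 12 libraries 78 members averaged 106.8 TPM (Rpl35) to 1245 TPM (Rpl41), and the median member stood at 381.6 TPM, against 9.6 TPM for all 10988 genes tested. Rps20, of the 40S head, averaged 27.8 TPM, the paralogs Rpl22l1 and Rpl7l1 38.8 and 31.4 TPM, and Rpl3l, a paralog used in striated muscle, lay between 0 and 0.3 TPM in every library. The annotated transcripts of Rps20 had a median length of 3706 bases, the longest of the members, followed by Rpl22 with 2048. Whether the low TPM of Rps20 comes from its annotation or from read assignment was not tested. Rpl3l was the only member under the filter of 1 TPM in 4 libraries, so 81 members were tested. The spread of a member within a group had a median SD of 0.15 on the log2 scale, with Rpl23a the steadiest (0.0683) and Rpl10 the most variable (0.51), against 0.212 for all genes tested. Of the 82 members, 60 share their name with annotated pseudogenes, up to 24 for Rpl31 and Rps12, and reads that fit both a gene and its copy make those levels uncertain.

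The 82 genes summed to 36984.4, 34069.4, 35509.6 and 28485.8 TPM in the 4 FGF21 libraries. They summed to 36738.3, 36583.9, 36941.7 and 37759.6 TPM in MASH vehicle and to 35403.4, 31526.3, 33256.3 and 33265.4 TPM in chow. The MASH vehicle libraries lay close together and above all 4 chow libraries, while the FGF21 libraries overlapped both groups. As a share of all TPM the means were 3.39% ± 0.383 in FGF21, 3.70% ± 0.0524 in MASH vehicle and 3.34% ± 0.159 in chow (SD, n = 4 each). These are shares of a fixed total. The Mup genes, encoding urinary pheromone carriers made in hepatocytes, took 3.54% ± 1.30 of it in FGF21, 3.60% ± 0.662 in MASH vehicle and 6.53% ± 0.638 in chow. Mitochondrially encoded RNA took 5.67% ± 1.33 in FGF21, 6.60% ± 0.503 in MASH vehicle and 11.2% ± 1.43 in chow. With median-of-ratios scaling, which sets the typical gene equal between libraries, the order of the last 2 groups turned: 35093.3 TPM in MASH vehicle and 37228.4 TPM in chow. The ratio of summed 60S to summed 40S TPM, which no scaling of a whole library can move, was 1.37 ± 0.0289 in FGF21, 1.40 ± 0.0102 in MASH vehicle and 1.40 ± 0.0183 in chow.

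**Figure D1:**
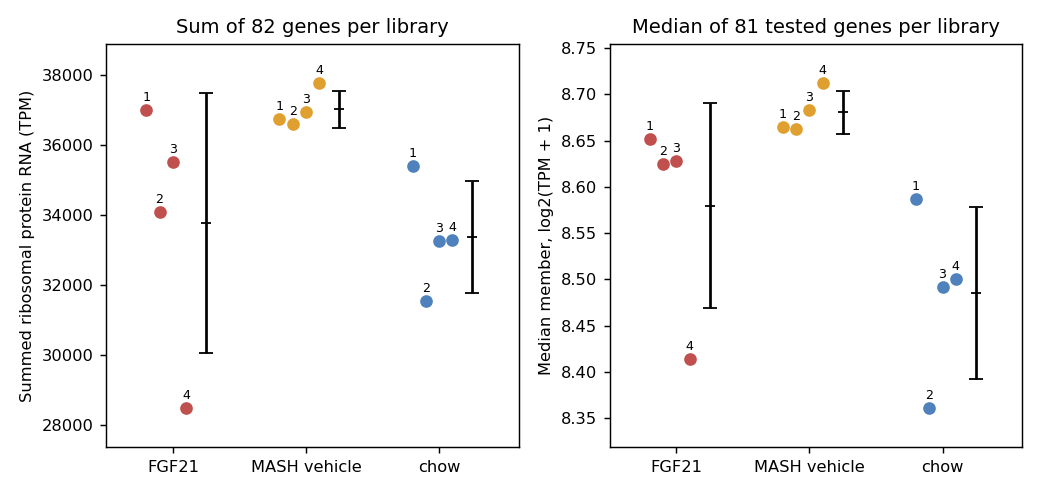
Ribosomal protein RNA per library, as summed TPM of 82 genes (left) and as the median log2(TPM + 1) of 81 tested genes (right). Points are libraries numbered by replicate, bars are the mean ± SD of 4 libraries, and the axes do not start at 0. FGF21 replicate 4 has the lowest sum, 28485.8 TPM, and the 4 MASH vehicle libraries lie between 36583.9 and 37759.6 TPM.

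MASH vehicle against chow compares the diets, both given with saline. On the TPM scale 18 of 81 ribosomal protein genes rose and 0 fell (22.2%, limma adjusted p under 0.05), against a background of 37.3% of all genes called, 29.5% higher and 7.84% lower; 24 had an unadjusted p under 0.05. The median log2 fold change of the members was 0.16, against 0.19 for all genes, and with median-of-ratios scaling it became -0.08, with 0 members higher and 7 lower, against 14.5% and 18% of all genes. The rises were modest and spread over both subunits, 12 of 49 tested 60S genes and 6 of 32 tested 40S genes. Among them were Rpl6, Rpl9, Rpl14, Rpl17, Rpl21, Rpl24, Rpl26, Rpl32, Rpl35, Rpl36al, Rpl7l1, Rplp0, Rps6, Rps12, Rps15a, Rps19 and Rpsa. With median-of-ratios scaling the median of all genes was -0.01, where the TPM value was 0.19. The groups did not overlap for 33 members that were higher in MASH vehicle (40.7%), against 33.1% of all genes, and for 5 that were lower (6.17%), against 9.52%. With quantile normalization 11 members were higher and 0 lower, against 15.3% and 18.1% of all genes. With the GC trend removed 0 were higher and 5 lower (against 12.2% and 13.2%), and with GC and length trends removed 0 and 12 (against 12.7% and 14.2%). The 18 calls became 10 without MASH vehicle replicate 4 and 9 without chow replicate 2. The share of all genes called in those fits is not given here, so whether the drop is particular to the members cannot be read from these counts.

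Among proteins at the exit tunnel, through which the new chain leaves, Rpl17, Rpl26 and Rpl35 were called higher, 3 of 9 members, near the 29.5% of all genes. Rpl26 (chromosome 11, 68901583 to 68906989 in GRCm38) was at 659.5, 712.9, 713.7 and 605.1 TPM in FGF21, 724.9, 721.7, 633.3 and 726.5 TPM in MASH vehicle, and 517.3, 411.5, 525.4 and 556.6 TPM in chow. Every MASH diet library, with or without FGF21, lay above every chow library. The log2 fold change in MASH vehicle against chow was 0.49 ± 0.108 (SE, limma adjusted p = 0.00407), and 0.25 with median-of-ratios scaling, where it did not pass (adjusted p = 0.0861). Rpl26 was also the only member called higher after each library was centred on its own ribosomal protein median (0.29, adjusted p = 0.0465).

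Other 60S genes showed the same layout. Rpl6 was at 315.3, 396.3, 363.9 and 466.8 TPM in FGF21, 367.0, 366.3, 329.2 and 410.4 TPM in MASH vehicle, and 268.5, 238.2, 270.9 and 282.6 TPM in chow, with no overlap between either MASH diet group and chow (MASH vehicle against chow 0.47 ± 0.120, adjusted p = 0.00896). Rpl14 was at 170.2, 202.4, 184.4 and 207.0 TPM in FGF21, 192.9, 202.1, 186.0 and 200.3 TPM in MASH vehicle, and 154.3, 140.0, 158.1 and 146.9 TPM in chow (0.38 ± 0.0910, adjusted p = 0.00611). Rpl24, which joins the 60S subunit late in its assembly, was at 308.0, 343.6, 366.6 and 279.1 TPM in FGF21, 393.4, 384.0, 334.7 and 363.3 TPM in MASH vehicle, and 257.5, 201.3, 280.5 and 312.5 TPM in chow. It rose by 0.50 ± 0.133 in MASH vehicle (adjusted p = 0.0110), while the FGF21 libraries overlapped both other groups. None of these 3 calls was kept with median-of-ratios scaling, where the fold changes were 0.24 for Rpl6, 0.15 for Rpl14 and 0.27 for Rpl24.

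The stalk, which recruits translation factors, consists of Rplp0 at its base and pairs of Rplp1 and Rplp2. Rplp0 was at 726.1, 793.6, 766.0 and 637.3 TPM in FGF21, 825.1, 834.2, 827.7 and 902.4 TPM in MASH vehicle, and 697.8, 653.2, 653.8 and 661.4 TPM in chow. All MASH vehicle libraries lay above those of the other 2 groups. It rose by 0.35 ± 0.0895 (adjusted p = 0.00968) on TPM, and the sign turned with the GC trend removed (-0.03). Rplp1 (0.09, adjusted p = 0.536) and Rplp2 (0.26, adjusted p = 0.109) did not pass. Rpl5 and Rpl11, which with 5S RNA can bind Mdm2 and so hold back the breakdown of p53, did not pass either (0.15 and 0.12, adjusted p = 0.227 and 0.420).

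On the 40S subunit, Rps6 is the classical substrate of the S6 kinases below mTORC1. It was at 467.6, 527.7, 540.1 and 481.5 TPM in FGF21, 528.0, 520.6, 483.0 and 541.9 TPM in MASH vehicle, and 395.3, 320.5, 426.5 and 465.8 TPM in chow, with both MASH diet groups above chow. The fold change in MASH vehicle against chow was 0.38 ± 0.113 (adjusted p = 0.0195). Rps19, needed for 40S maturation and mutated in human Diamond-Blackfan anaemia, was at 565.5, 510.6, 531.4 and 418.9 TPM in FGF21, 594.3, 599.6, 615.3 and 615.5 TPM in MASH vehicle, and 487.5, 453.3, 459.8 and 436.0 TPM in chow. The MASH vehicle libraries were the highest 4 of the 12, and the rise was 0.40 ± 0.0982 (adjusted p = 0.00710). With median-of-ratios scaling Rps6 was at 0.14 and Rps19 at 0.17, and neither passed. Rps19 shares its name with 14 annotated pseudogenes. Members at the mRNA entry site (0 of 3) and at the decoding centre (0 of 4) made no call, and at the mRNA exit site Rpsa, the laminin receptor homologue, was called (1 of 6). With 29.5% of all genes called higher, groups of 3 to 6 genes are too small for these counts to set a site apart.

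Of the 4 tested paralogs, Rpl7l1 and Rpl36al rose. Rpl7l1, a nucleolar relative of Rpl7, was at 27.2, 42.1, 30.6 and 36.3 TPM in FGF21, 40.5, 35.5, 28.5 and 38.1 TPM in MASH vehicle, and 24.8, 22.5, 24.8 and 26.0 TPM in chow, which lay below all MASH diet libraries (MASH vehicle against chow 0.51 ± 0.143, adjusted p = 0.0141). Its relative Rpl7 stood about an order of magnitude higher in TPM, at 299 ± 58.4 in FGF21, 273 ± 16.2 in MASH vehicle and 222 ± 33.4 in chow, and did not pass in this comparison (0.30, adjusted p = 0.105). Rpl36al averaged 395 ± 38.5 TPM in FGF21, 454 ± 46.0 in MASH vehicle and 342 ± 61.1 in chow (0.42 ± 0.135, adjusted p = 0.0274). Rps27l, a p53 target in human cells, averaged 320 ± 64.0, 363 ± 18.5 and 355 ± 15.9 TPM in FGF21, MASH vehicle and chow, and did not pass (0.03, adjusted p = 0.861).

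**Figure D2:**
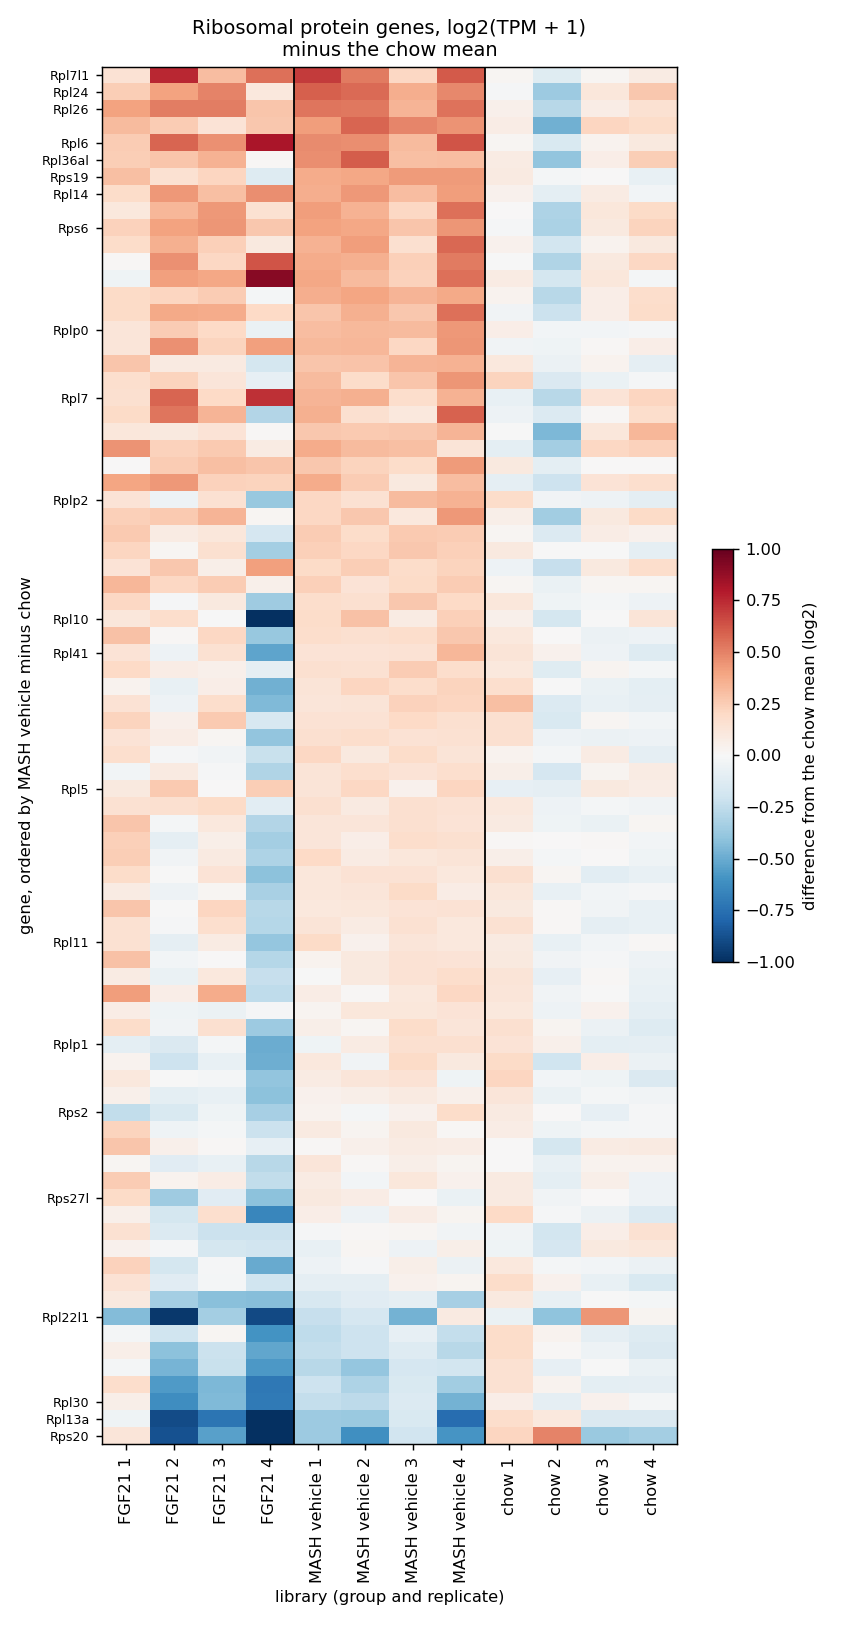
Each of 81 tested ribosomal protein genes (rows) in each library (columns), as log2(TPM + 1) minus the gene's chow mean, with rows ordered by the fold change in MASH vehicle against chow; colours are capped at 1 in either direction, and the rows of the named members are labelled. The column of FGF21 replicate 4 is blue in most rows, and in Rpl6 and Rpl7 it is red.

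A smaller set ran the other way. Rpl13a (chromosome 7, 45125558 to 45128761), which in human cells also leaves the ribosome to silence inflammatory mRNAs, was at 809.1, 449.6, 502.5 and 365.6 TPM in FGF21, 650.0, 643.8, 750.3 and 491.3 TPM in MASH vehicle, and 945.2, 899.3, 756.9 and 755.4 TPM in chow. MASH vehicle lay below chow without overlap, and in the FGF21 group replicate 1 alone reached the chow range. The fold change of MASH vehicle against chow was -0.41 ± 0.204 and did not pass on TPM (adjusted p = 0.122), but passed with median-of-ratios scaling (-0.65, adjusted p = 0.0299). Rpl30 was at 269.3, 168.1, 190.0 and 158.0 TPM in FGF21, 219.0, 215.6, 235.3 and 186.7 TPM in MASH vehicle, and 270.7, 243.3, 266.6 and 256.1 TPM in chow, again with MASH vehicle below chow. It was at -0.28 on TPM (adjusted p = 0.141) and at -0.51 with median-of-ratios scaling (adjusted p = 0.0182). The same 7 genes, Rpl13a, Rpl23, Rpl27a, Rpl30, Rpl36, Rps16 and Rps3a1, were called lower with median-of-ratios scaling (8.64% of members, against 18% of all genes) and when each library was centred on the ribosomal protein median (against 14.4% of all genes), where 1 member, Rpl26, was higher (against 11.4%).

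Ratios between members do not depend on how a library is scaled. The pairs given were chosen after their values were seen and carry no test. Rpl26 over Rpl13a was 0.815, 1.59, 1.42 and 1.66 in FGF21, 1.12, 1.12, 0.844 and 1.48 in MASH vehicle, and 0.547, 0.458, 0.694 and 0.737 in chow. Rpl6 over Rpl30 ran between 1.17 and 2.95 in FGF21, between 1.40 and 2.20 in MASH vehicle, and between 0.979 and 1.103 in chow. In both ratios every library of the MASH diet lay above every chow library.

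Of the 82 members, 30 hold an annotated snoRNA gene inside them on the same strand, among them Rpl13a with Snord32a, Snord33, Snord34 and Snord35a. After centring on the ribosomal protein median, 6 of the 7 genes called lower in MASH vehicle against chow were such host genes, the exception being Rpl36, and in FGF21 against chow 9 of 11 (13.6% of members, against 16.9% of all genes), where 2 members, Rpl6 and Rpl26, were higher (2.47%, against 24.9%). The median centred fold change in MASH vehicle against chow was nevertheless -0.04 in the 30 hosts and -0.04 in the 51 others. The snoRNAs themselves lack a polyA tail, and their levels were not analysed here.

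**Figure D3:**
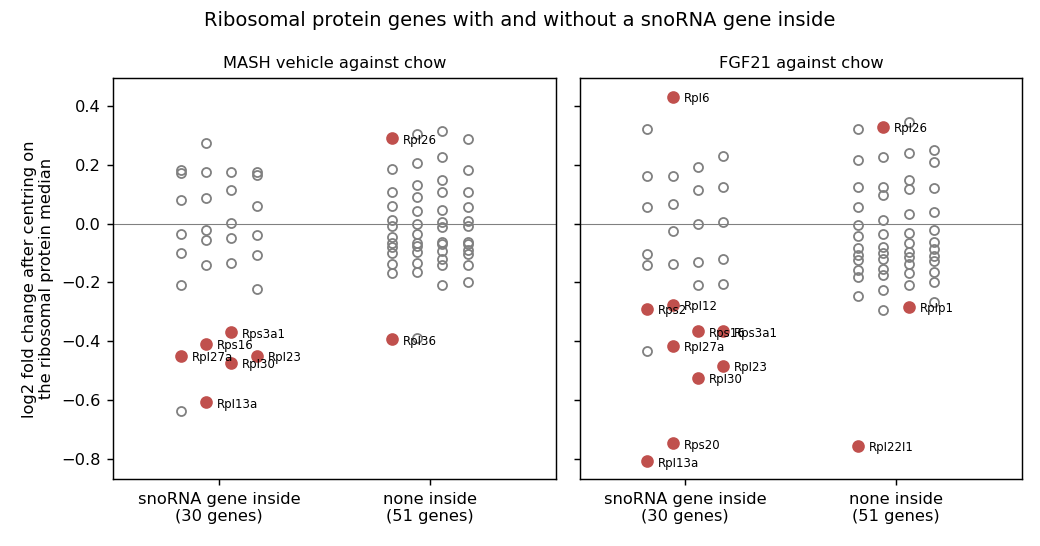
Log2 fold change of each tested member after centring each library on its ribosomal protein median, for members with and without an annotated snoRNA gene inside them, in MASH vehicle against chow (left) and FGF21 against chow (right). Filled red points passed limma at an adjusted p under 0.05 and are named; 6 of the 7 lower calls on the left lie among the 30 hosts.

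FGF21 against MASH vehicle compares the groups given the hormone and saline on the MASH diet. No ribosomal protein gene passed in either direction (0 of 81 with limma), where 10.3% of all genes did, 6.02% higher and 4.28% lower; 10 members had an unadjusted p under 0.05. Fold changes ran from -0.54 (Rpl10) to 0.11 (Rpl7), with a median of -0.13, against -0.03 for all genes. Of the 81 members 72 had a negative value, and FGF21 replicate 4 was the lowest of its group in 65. The members share the same libraries, so 72 is not a number of separate observations. The member median became 0.01 with GC and length trends removed, where 1 member, Rps19, was called lower, against 4.97% of all genes. With the GC trend alone removed 2 were lower, Rps2 and Rps19, against 5.15%, and with quantile normalization 1, Rps2, against 4.4%. The median SE of a member's fold change was 0.113. The groups did not overlap for 9 members that were lower in FGF21 (11.1%), against 6.63% of all genes, and for 0 that were higher, against 7.47%. The 9 were Rpl10a, Rpl29, Rpl32, Rplp0, Rps2, Rps15a, Rps19, Rps25 and Rps26, named after their values were seen.

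Rps2, at the mRNA entry site, came nearest to the threshold. It was at 932.2, 995.2, 1075.0 and 879.2 TPM in FGF21, 1136.3, 1089.7, 1140.7 and 1258.7 TPM in MASH vehicle, and 1181.4, 1109.3, 1047.5 and 1096.0 TPM in chow. FGF21 lay below MASH vehicle without overlap (-0.25 ± 0.0917, adjusted p = 0.0950), and it was called lower with quantile normalization (-0.33, adjusted p = 0.0382). Rps19 followed (-0.27 ± 0.0982, adjusted p = 0.103). The stalk genes Rplp0 (-0.22), Rplp1 (-0.28) and Rplp2 (-0.29) did not pass either, with adjusted p of 0.143, 0.135 and 0.147. Rplp1 was at 1002.1, 972.2, 1061.5 and 762.1 TPM in FGF21, 1043.6, 1138.4, 1200.2 and 1200.0 TPM in MASH vehicle, and 1179.8, 1113.5, 1003.0 and 1009.2 TPM in chow.

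Much of the spread in this comparison lay in single FGF21 libraries. Rpl10, a 60S protein that joins last in yeast, was at 1013.1, 1059.8, 933.1 and 300.3 TPM in FGF21, 1066.6, 1149.1, 991.4 and 1103.7 TPM in MASH vehicle, and 973.2, 829.4, 934.7 and 1025.4 TPM in chow. Only FGF21 replicate 4 was low. The same library held the highest value of all 12 for Rpl6 (466.8 TPM) and Rpl7 (365.9 TPM). Its deviations from the FGF21 mean correlated across the 81 members with the length of the gene's transcripts (Spearman's rho 0.45) and with their GC content (-0.48), as a description over genes that share 1 library. A relation to GC content was not particular to this library. For deviations from their own group mean, rho with GC content was 0.56, 0.46, -0.61 and -0.46 in chow replicates 1 to 4. It was 0.43 in FGF21 replicate 3 and lay between -0.26 and 0.29 in MASH vehicle. FGF21 replicate 1 had the highest value of its group in 42 members. Without it 5 members were called lower in FGF21 (Rpl13a, Rpl23, Rps12, Rps19 and Rps27l; 6.17%, against 8.56% of all genes). Without replicates 1 and 3, whose totals fall short, 24 were called lower (29.6%, against 11.1% of all genes), an alternative chosen after the data were seen. That fit keeps only FGF21 replicates 2 and 4, and replicate 4 was the lowest of its group in 65 members. When replicate 4 alone was left out, 0 members were called.

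**Figure D4:**
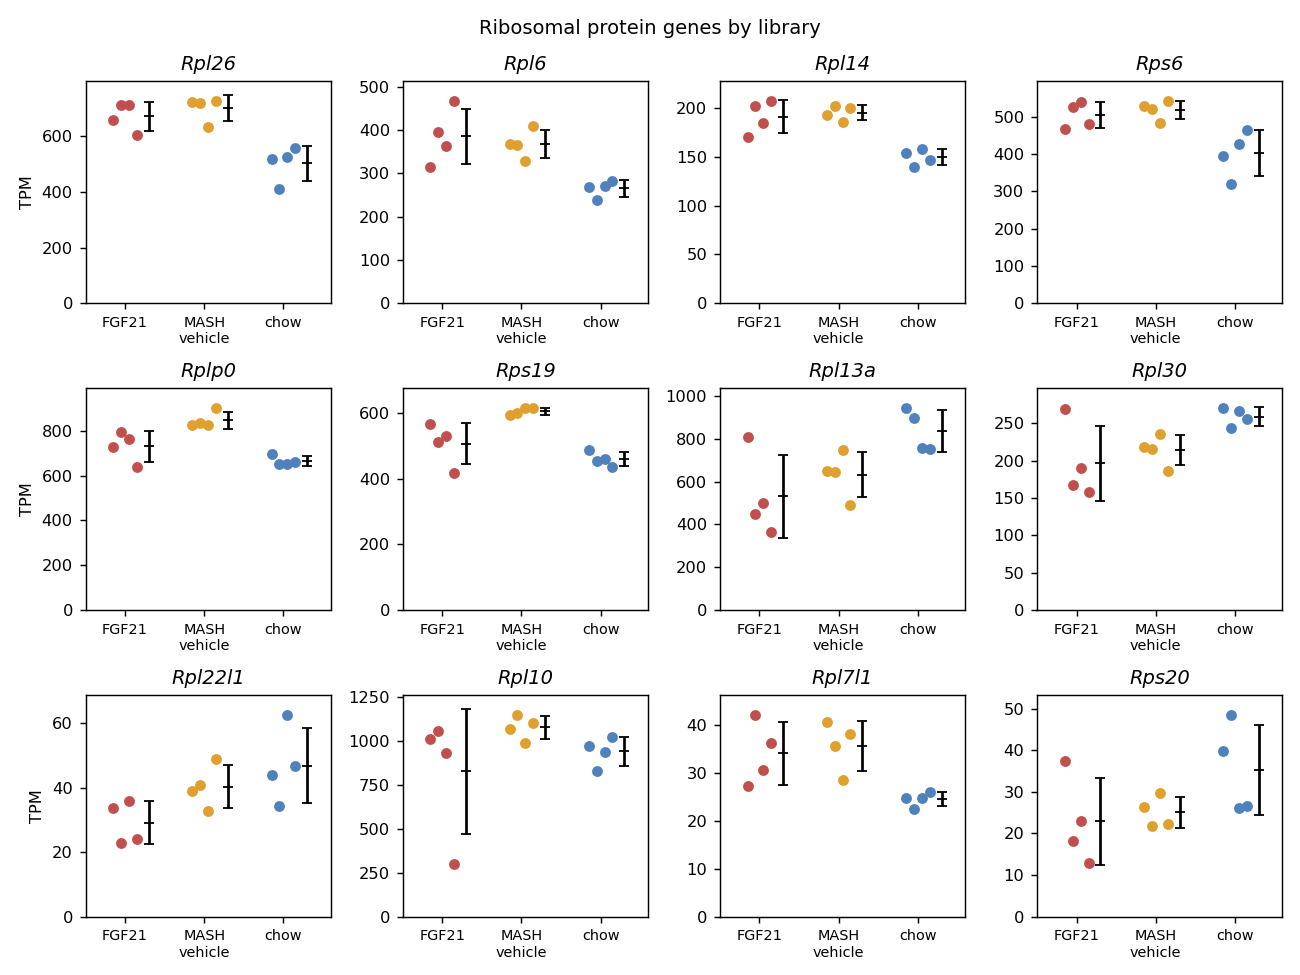
TPM of 12 ribosomal protein genes in each library, with libraries as points and the mean ± SD of 4 libraries as bars; every axis starts at 0. Rpl26, Rpl6 and Rpl14 are lowest in chow, and Rpl10 is low in FGF21 replicate 4 alone (300.3 TPM). The TPM values of Rps20 and Rpl22l1 are an order of magnitude lower than those of most members.

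FGF21 against chow shares its libraries with the 2 comparisons above. Here 10 members rose and 4 fell on TPM (12.3% and 4.94%), against 37.8% and 14.2% of all genes (52% in either direction). With median-of-ratios scaling 0 were called higher and 22 lower (against 23.2% and 24.4% of all genes), the median member moving to -0.21 where the TPM value was 0.01; for all genes the TPM median was 0.20. The 10 were Rpl3, Rpl6, Rpl7, Rpl9, Rpl14, Rpl21, Rpl22, Rpl26, Rpl7l1 and Rps6. Rpl6 rose by 0.53 ± 0.120 (adjusted p = 0.00355) and Rpl26 by 0.43 ± 0.108 (adjusted p = 0.00641), whose sign turned with the GC trend removed (-0.04). The log2 fold change was 0.35 for Rpl14, 0.44 for Rpl7l1 and 0.34 for Rps6 (adjusted p = 0.00759, 0.0210 and 0.0244), with no overlap in any of the 3.

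The 4 that fell were Rpl13a, Rpl22l1, Rpl27a and Rpl30. Rpl13a fell by 0.71 on the log2 scale (SE 0.204, adjusted p = 0.0114) and Rpl30 fell by 0.43 (SE 0.145, adjusted p = 0.0251), both lower also with median-of-ratios scaling. Rpl22l1, the paralog of the RNA-binding protein Rpl22, was at 33.6, 23.0, 36.0 and 24.0 TPM in FGF21, 38.9, 40.8, 32.8 and 48.8 TPM in MASH vehicle, and 43.8, 34.4, 62.6 and 46.7 TPM in chow. It fell by 0.66 in FGF21 against chow (SE 0.192, adjusted p = 0.0124) though FGF21 replicate 3 reached the chow range, and with GC and length trends removed its sign turned (0.03). Rpl22 itself rose by 0.32 (SE 0.109, adjusted p = 0.0254). Rps20 was at 37.3, 18.2, 23.1 and 13.0 TPM in FGF21, 26.3, 21.9, 29.7 and 22.3 TPM in MASH vehicle, and 39.8, 48.5, 26.2 and 26.7 TPM in chow, with wide spread in FGF21 and chow, and missed the threshold (-0.65 ± 0.270, adjusted p = 0.0562). With quantile normalization 3 were higher and 10 lower, against 23% and 23.9% of all genes. With the GC trend removed 1 was higher and 35 lower (43.2% lower, against 15.4% of all genes, and 14.2% higher), and with GC and length trends removed 8 were higher and 26 lower (9.88% and 32.1%, against 13.7% and 15.2%). With single libraries left out the counts ran from 3 higher (without FGF21 replicate 2) to 13 (without FGF21 replicate 4), and from 2 lower to 9 (without FGF21 replicate 1). Without FGF21 replicate 1, 14.8% of members were higher and 11.1% lower, against 40.5% and 18.6% of all genes. For the other libraries left out the share of all genes is not given here.

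**Figure D5:**
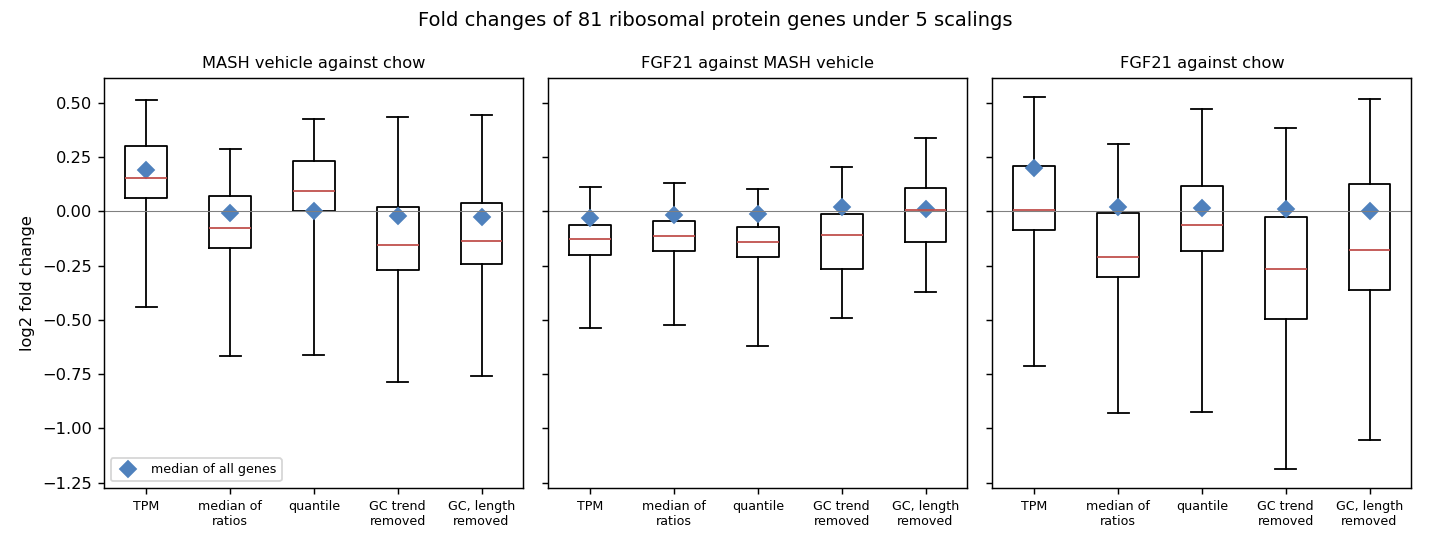
Log2 fold changes of 81 ribosomal protein genes in 3 comparisons under 5 scalings; boxes span the quartiles, red lines are medians, whiskers reach the lowest and highest member, and diamonds are the median of all genes. The member median in MASH vehicle against chow is 0.16 on TPM and -0.08 with median-of-ratios scaling.

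Across the 81 members, the fold change in MASH vehicle against chow had little relation to transcript length (Spearman's rho 0.18), GC content (-0.03), mean level (-0.07) or the number of named pseudogenes (0.08), given as descriptions over genes of the same libraries. In FGF21 against MASH vehicle rho was 0.25 with length and -0.27 with GC content.

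Other genes of the translation machinery were counted in the same way. Of 21 tested mRNAs with a TOP motif that do not encode these proteins, 5 rose and 1 fell in MASH vehicle against chow on TPM, and with median-of-ratios scaling 1 rose and 5 fell. The background for this and the next 4 lists is the share of all genes called in that comparison, 29.5% higher and 7.84% lower on TPM and 14.5% and 18% with median-of-ratios scaling, and no list is set apart from it here. Eef1g, a subunit of elongation factor 1, averaged 202 ± 62.7 TPM in FGF21, 176 ± 26.8 in MASH vehicle and 93.5 ± 13.7 in chow (MASH vehicle against chow 0.90, adjusted p = 0.00435; FGF21 against chow 1.06, adjusted p = 0.00135), and kept both calls with median-of-ratios scaling. Eef2, the elongation factor that moves the ribosome along the mRNA, averaged 2991 ± 542 TPM in FGF21, 1744 ± 128 in MASH vehicle and 2001 ± 295 in chow. It was the only one of the 21 called in FGF21 against MASH vehicle (0.76 ± 0.138, adjusted p = 0.00567), with the ribosomal proteins at a median of -0.13. Fau, which encodes a 40S protein fused to a ubiquitin-like one and lies outside the naming rule, did not pass in MASH vehicle against chow (adjusted p = 0.633).

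Among 24 genes of initiation and TOP control, 6 rose and 1 fell in MASH vehicle against chow on TPM (2 and 6 with median-of-ratios scaling). The kinase Rps6ka1 averaged 39.95 ± 9.89 TPM in FGF21, 32.6 ± 3.84 in MASH vehicle and 14.1 ± 2.32 in chow, and Mtor, the kinase of mTORC1, averaged 23.6 ± 7.27, 21.4 ± 1.95 and 11.8 ± 2.08 TPM in FGF21, MASH vehicle and chow. Both rose in MASH vehicle against chow (1.17 and 0.83, adjusted p = 0.000248 and 0.00486), also with median-of-ratios scaling. In FGF21 against chow 7 of the 24 rose and 8 fell, against 37.8% and 14.2% of all genes. Larp1 and Rptor, a subunit of mTORC1, rose (0.71 and 0.93, adjusted p = 0.000456 and 0.000914). Among those that fell were the initiation factors Eif4a2 (-0.97, adjusted p = 0.00235) and Eif5 (-0.81, adjusted p = 0.0112), named after their values were seen. In FGF21 against MASH vehicle 0 of the 24 were called, and 2 had an unadjusted p under 0.05.

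Of 41 tested genes of ribosome biogenesis, 13 rose and 1 fell in MASH vehicle against chow on TPM (3 and 7 with median-of-ratios scaling). Eif6, which keeps new 60S subunits from joining 40S too early, averaged 93.6 ± 10.97 TPM in FGF21, 134 ± 11.9 in MASH vehicle and 85.0 ± 5.69 in chow. It rose in MASH vehicle against chow (0.65 ± 0.109, adjusted p = 0.000607) and fell in FGF21 against MASH vehicle (-0.52 ± 0.109, adjusted p = 0.0110), and both calls were kept with median-of-ratios scaling. Bop1, of 60S processing, rose with FGF21 (0.42, adjusted p = 0.0386). Nolc1, a nucleolar chaperone of snoRNPs, rose in MASH vehicle against chow (0.97, adjusted p = 0.00282), while the nucleolar GTPase Gtpbp4 fell (-0.61, adjusted p = 0.000961).

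For comparison, the mitochondrial ribosome had 11 of 78 genes higher and 4 lower in MASH vehicle against chow (2 and 14 with median-of-ratios scaling), with a median of 0.15 on TPM and -0.07 with that scaling, and the proteasome core had 5 of 14 higher and 0 lower (0 and 4), with a median of 0.19 and -0.04. In FGF21 against MASH vehicle their medians were -0.10 and -0.18, and 1 of 78 (Mrpl54, -0.47, adjusted p = 0.0489) and 0 of 14 were called lower, with 1 of the 14 at an unadjusted p under 0.05. The medians of the ribosomal proteins, 0.16 and -0.13, lay close to those of both lists.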

How the data were processed

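Liver polyA RNA was sequenced in 12 libraries, 4 each of FGF21, MASH vehicle and chow. The authors deposited 1 table of gene values, read here as TPM because each library sums to nearly 1000000, although its sheet is named FPKM; per the submitters' processing notes, Trim Galore 6.10, Salmon 1.10.2 and the mm10 build were used. TPM keep no depth, so depth is unknown and no counting interval is given. Genes with at least 1 TPM in at least 4 libraries (10988) were fitted as log2(TPM + 1) with limma 3.58.1 in R 4.3.3 (1 mean per group over all 12 libraries, trend and robust options, two-sided, Benjamini-Hochberg over all genes tested, threshold 0.05). Fold changes are on that scale and errors of fold changes are standard errors. The planned test allowed for FPKM or TPM. The method was checked on simulated data. Alternatives were other scalings, filters, pseudocounts and designs, removal of trends in transcript GC content and length, and leaving out libraries. A rule chose 23 members to name: smallest p-values, minority direction, most abundant, stalk, Rpl5, Rpl11, Rps6, paralogs and extremes. Values in every library are given for most of them. Others are summarised by group or range, Rpl5, Rpl11 and Rplp2 by fold change, and Rpl41 by its mean over all libraries. The members and lists were chosen with earlier results of these data known. Some items are not reported here. Coordinates are from GENCODE M21 (GRCm38).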

Additional observations from a re-analysis of the deposited data

Results flagged for a closer look

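In 6 cases 1 of the 4 libraries of a group lay so far from the other 3 that the gap, over the group's range, exceeded Dixon's critical value, among 72 checks on the 23 named members and the summed level; chance alone gives about 1 in 20. Rpl10 stood at 300.3 TPM in FGF21 replicate 4, against 933.1 to 1059.8 TPM in the other FGF21 libraries. In MASH vehicle replicate 3, Rpl26 stood at 633.3 TPM, against 721.7 to 726.5 TPM in the others, and Rpl7 at 248.3 TPM, against 279.1 to 282.5 TPM. In MASH vehicle replicate 4, Rpl41 stood at 1511.3 TPM, against 1318.8 to 1330.1 TPM, and Rplp0 at 902.4 TPM, against 825.1 to 834.2 TPM. Rpl3l was listed at 0.1 TPM in MASH vehicle replicate 2 and at 0 in the other 3, a difference of the last printed digit.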

How the results depend on the processing

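In MASH vehicle against chow, the 18 higher and 0 lower ribosomal protein genes became 0 and 7 with median-of-ratios scaling, 11 and 0 with quantile normalization, 5 and 1 with Mup and mitochondrial genes left out of the total, 1 and 7 after centring on the ribosomal protein median, 0 and 5 with the GC trend removed and 0 and 12 with GC and length trends removed. Fitting only the 2 groups gave 27 and 4 (33.3% and 4.94%, against 36.9% and 11.1% of all genes), and leaving out FGF21 replicates 1 and 3 (chosen after seeing the data) gave 24 and 4 (29.6% and 4.94%, against 35.5% and 11.3%). Single libraries left out gave 9 to 24 higher and 0 to 3 lower. In FGF21 against MASH vehicle 0 were higher throughout these settings. The 0 lower became 1, 2 and 1 with quantile normalization, GC removal, and GC and length removal, and 0 to 5 without single libraries. They became 24 without FGF21 replicates 1 and 3 (against 11.1% of all genes), which keeps only FGF21 replicates 2 and 4. In FGF21 against chow, 10 higher and 4 lower became 0 and 22 (median-of-ratios), 3 and 10 (quantile), 2 and 11 (Mup and mitochondrial genes out), 2 and 11 (centred), 1 and 35 (GC), 8 and 26 (GC and length), 5 and 2 (2 groups only, against 33.2% and 10.6% of all genes), and 11 and 14 without FGF21 replicates 1 and 3 (against 38.6% and 18.7%); single libraries left out gave 3 to 13 and 2 to 9. The cause of these shifts was not tested. With the replicate block the counts were 19 and 0, 0 and 0, and 11 and 7 in the 3 comparisons. The share of all genes called is not given here for the replicate block or without Mup and mitochondrial genes. It is also not given for most single libraries left out. Those counts therefore do not set the members apart from other genes. The labels do not say that equal replicate numbers pair libraries, and some deposited library names carry other numbers. Same-number correlations averaged 0.107, 0.210 and 0.142, against -0.0359, -0.0716 and -0.0463 for other numbers. Their lowest values were -0.176, 0.0877 and -0.123. These values do not settle whether the numbers pair libraries. Summed TPM moved in MASH vehicle to 35093.3 with median-of-ratios scaling and 41208.8 without Mup and mitochondrial genes, and in chow to 37228.4 and 40565.4. Signs turned with trends removed: in MASH vehicle against chow for Rplp0 (-0.025 GC, -0.027 GC and length) and Rps2 (-0.30 GC and length), and in FGF21 against chow for Rpl26 (-0.043 GC), Rplp0 (-0.35 GC, -0.23 GC and length), Rps19 (-0.39 GC), Rpl22l1 (0.026 GC and length) and Rps27l (0.36 GC and length). Of all genes, 3242 higher and 861 lower in MASH vehicle against chow became 1592 and 1980 with median-of-ratios scaling, 4153 and 1560 in FGF21 against chow became 2551 and 2680, and 662 and 470 in FGF21 against MASH vehicle became 1767 and 1222 without FGF21 replicates 1 and 3. Depth is unknown, so what it limits cannot be given.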
